A study of Mus musculus with 6 samples.

Results

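The interleukin-6 (IL-6) family was examined in mouse myometrium through 10 genes, taken by symbol: the receptor genes Il31ra, Osmr, Il6st, Il6ra, Lifr and Il11ra1 and the ligand genes Osm, Il6, Lif and Il11. All 10 were present among the 55055 genes of the deposited tables and all 10 passed the filter on low counts, which left 19599 genes. The group was chosen by the normalized values of Il31ra, which are lower in each knockout library. The genotype difference of Il31ra is therefore a description without a test, and only the other 9 genes, which were included as family members, are given with a test. The whole group was put together with results of these data known.

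The tissue was late-pregnancy myometrium, the muscular wall of the uterus, taken at E19.5 by its labels (the design text says day 19 of gestation). The groups were 3 libraries labelled TCF23 WT and 3 labelled TCF23 KO, each from a different animal, and the knockout was made with CRISPR/Cas9. Tcf23 encodes a basic helix-loop-helix factor. The sources used here do not give the strain, the ages of the dams, the founder line or the genotype of the fetuses.

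Cytokines of the IL-6 family act through receptors that are built around shared signalling chains. The gp130 protein, encoded by Il6st, is the common chain for IL-6, IL-11, LIF and oncostatin M. The receptor for IL-31 is the exception: it pairs the gp130-like chain encoded by Il31ra with the oncostatin M receptor chain encoded by Osmr. Ligand binding activates JAK kinases and STAT factors, chiefly STAT3, and SOCS proteins shut the signal off. In the uterus LIF is known for its part in embryo implantation.

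The 10 genes include 3 neighbouring pairs. Il31ra (mm10 chr13:112522795-112580662, minus strand) and Il6st (chr13:112464070-112510086, plus strand) end toward each other with 12708 bases between them. Osmr (chr15:6813577-6874969, minus strand) and Lifr (chr15:7090614-7197489, plus strand) start away from each other across 215644 bases. Osm (chr11:4236420-4241026) and Lif (chr11:4257557-4272514) lie on the plus strand with 16530 bases between them. Il6 (chr5:30013114-30019981) lies 948680 bases from the knocked-out gene Tcf23. Il6ra is at chr3:89864059-89913196, Il11 at chr7:4772373-4782859 and Il11ra1 at chr4:41699989-41769474.

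The windows just upstream of Il31ra, the gene with the largest difference in the group, and of its neighbour Il6st are shown for comparison. They are RefSeq windows of build GRCm38.p6 and hold the 250 bases before each annotated start, 5′ to 3′ on the strand of the gene, at chr13:112580663-112580912 (minus) for Il31ra and chr13:112463820-112464069 (plus) for Il6st. Capitals mark the letters CANNTG, the E-box form that basic helix-loop-helix factors can bind, and TTCNNNGAA, a form that STAT factors can bind. Both forms read the same on either strand and did not overlap each other.
Il31ra: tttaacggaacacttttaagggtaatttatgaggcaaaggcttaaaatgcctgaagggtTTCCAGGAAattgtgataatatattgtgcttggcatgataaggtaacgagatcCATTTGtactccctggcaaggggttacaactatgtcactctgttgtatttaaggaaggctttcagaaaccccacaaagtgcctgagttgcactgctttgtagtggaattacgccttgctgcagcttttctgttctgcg
Il6st: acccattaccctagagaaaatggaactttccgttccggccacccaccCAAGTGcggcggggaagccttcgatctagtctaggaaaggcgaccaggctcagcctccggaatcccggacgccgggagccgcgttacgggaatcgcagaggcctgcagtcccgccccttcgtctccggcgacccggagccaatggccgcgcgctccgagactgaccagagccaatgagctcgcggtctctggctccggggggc

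The Il31ra window held 1 E-box form, CATTTG, beginning at base -138 from the start, and 1 STAT form, TTCCAGGAA, beginning at base -191. The Il6st window held 1 E-box form, CAAGTG at base -203, and no STAT form. Windows were matched by symbol for 9 members, all but Osm, some with more than 1 start. Of their 12 windows, 9 held an E-box form and 1, that of Il31ra, held the STAT form. Over 32851 windows of this length, 66.2% held at least 1 E-box form and 7.02% the STAT form. A match in letters is a description and not a binding site.

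Total counts ran from 39939686 to 65036402 per library. Tcf23 had 3360 to 5970 counts in the wild-type libraries and 0 to 2 in the knockout libraries, so 6 of 6 libraries matched their genotype label. All 10 smooth muscle markers (Acta2, Myh11 and others) had counts in every library, and their summed level was 26680 to 31430 CPM (the count scaled to library size) in wild-type and 14970 to 38200 CPM in knockout, lowest in knockout replicate 3. Knockout replicate 1 stood apart in trophoblast and placenta markers, with a summed 290.5 CPM against 0.39 to 38.1 CPM in the other 5 libraries. Knockout replicate 2 stood apart in Schwann cell and nerve markers, with 60.8 CPM against 11.2 to 14.8 CPM.

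Il31ra was at a low level in wild-type myometrium and lower still in knockout myometrium. It had 7.05, 8.23 and 7.26 CPM in wild-type replicates 1 to 3 and 1.73, 2.07 and 2.44 CPM in knockout replicates 1 to 3. Every knockout library was below every wild-type library, as the choice of the gene requires. The means were 7.51 ± 0.628 CPM (SD, n = 3) and 2.08 ± 0.357 CPM, a 3.61-fold difference (log2 difference −1.86 ± 0.21 SE, knockout minus wild-type).

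Il31ra had 329 to 427 counts in the wild-type libraries and 100 to 115 in the knockout libraries. Over all tested genes, 7.01% had every knockout library below every wild-type library. No other annotated gene overlaps Il31ra. In bulk tissue, fewer cells of a type that transcribes Il31ra and less Il31ra RNA per cell cannot be told apart.

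Summed markers did not overlap between genotypes for mesothelium, for natural killer and T cells and for neutrophils. The sums of every other cell type examined overlapped. Among single tested genes, 7.01% had every knockout library below every wild-type library and 7.22% had every one above. No marker of any cell type passed edgeR's threshold, but only 0.0204% of all tested genes did. That count therefore cannot decide whether cell makeup changed. Log2 differences were positive for 9 of 9 tested natural killer and T cell markers and 5 of 5 tested neutrophil markers. They were positive for 0 of 5 mesothelium markers, against 52.1% of all tested genes. The summed level of 5 mesothelium markers, all detected in every library, was 138.2 to 252.1 CPM in wild-type and 74.2 to 109.2 CPM in knockout. The summed level of 9 natural killer and T cell markers, again all detected, was 6.17 to 8.83 CPM in wild-type and 14.1 to 19.0 CPM in knockout. Of 8 neutrophil markers 6 had counts in every library, while Ly6g and Ngp were at 0 in at least 1. Only 5 of the 8 passed the filter on low counts. The neutrophil sum was 6.71 to 10.9 CPM in wild-type and 19.8 to 31.8 CPM in knockout. All 7 mast cell markers had counts in every library and 0 of 7 had a positive log2 difference, with sums of 94.5 to 172.5 CPM in wild-type and 43.7 to 101.6 CPM in knockout, which overlapped. Sums overlapped for markers of macrophages and monocytes, a cell type known to carry the IL-31 receptor, with 1538 to 2047 CPM in wild-type and 1704 to 2068 CPM in knockout. They also overlapped for keratinocyte markers (8.71 to 22.8 and 9.97 to 30.6 CPM). The part of these cell types in the Il31ra difference was not tested.

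**Figure D1:**
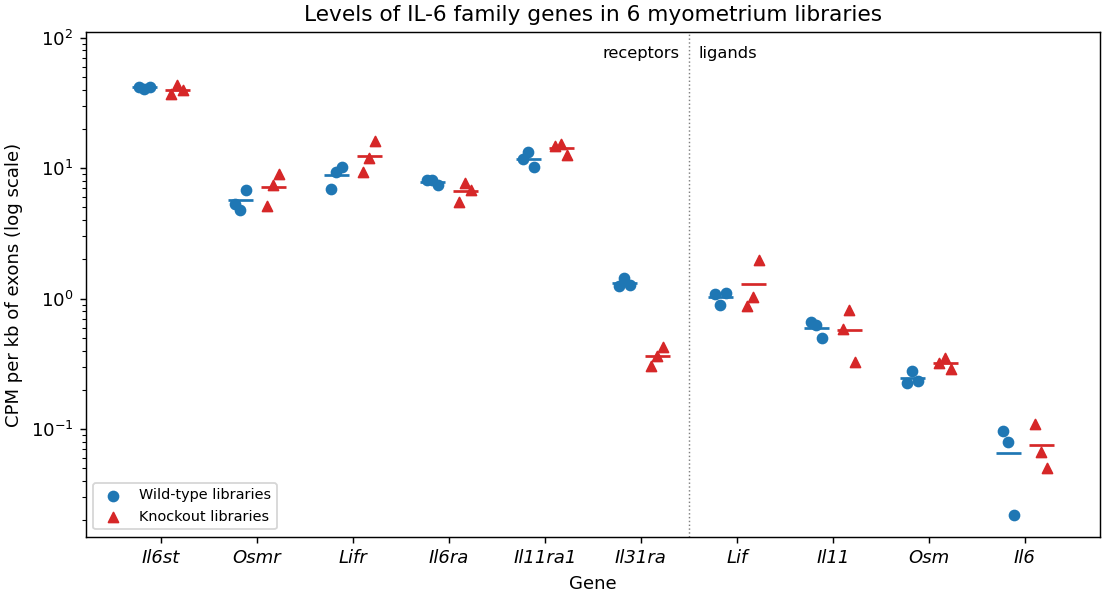
Level of each gene in CPM per kb of merged exons (log axis), with wild-type libraries as circles, knockout libraries as triangles and group means as lines (n = 3 each). Il31ra has the lowest level of the 6 receptor genes shown, 1.32 in wild-type and 0.366 in knockout, and Il6st is the highest at 41.5 and 40.02.

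Levels of different genes were compared as CPM per kb of exons, the plot of levels by gene giving each library. In wild-type myometrium the receptor genes came first: Il6st at 41.5 ± 0.741 CPM per kb (SD, n = 3), Il11ra1 at 11.7 ± 1.47, Lifr at 8.86 ± 1.73, Il6ra at 7.89 ± 0.412 and Osmr at 5.67 ± 1.05. Il31ra followed at 1.32 ± 0.111 CPM per kb, then the ligand genes Lif at 1.03 ± 0.118, Il11 at 0.595 ± 0.0863, Osm at 0.247 ± 0.0286 and Il6 at 0.0662 ± 0.0392. Wild-type libraries of neighbours in this order overlapped only for Lifr and Il6ra. Among these 10 genes, each ligand gene was below each receptor gene in mean level in wild-type tissue.

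In knockout myometrium Il31ra came eighth of the 10, below Lif and Il11, at 0.366 ± 0.0629 CPM per kb. Its knockout libraries (0.304 to 0.430 CPM per kb) overlapped those of Il11 (0.328 to 0.823) and of Osm (0.290 to 0.349). Lif, at 0.879 to 1.96 CPM per kb in knockout, was above them, whereas in wild-type its libraries lay below those of Il31ra. The order of Il6ra and Osmr also switched between the genotypes, with knockout libraries that overlapped, as did those of Il11ra1 and Lifr.

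Relative to its partner chain in the IL-31 receptor, Il31ra made up a smaller share in knockout tissue. Its per-kb level was 23.3, 30.1 and 18.7% of that of Osmr in wild-type replicates 1 to 3 and 5.94, 4.96 and 4.76% in knockout replicates 1 to 3. The ratio carries the Il31ra values that chose the gene and is given as a description. Transcripts of the ligand Il31 had 0 counts in all 6 libraries, and the limit taken for a count of 0, 3 counts, would be 0.0466 to 0.0732 CPM.

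None of the other 9 family genes passed edgeR's threshold (0 of 9 at a Benjamini-Hochberg adjusted p under 0.05, against 0.0204% of all tested genes). At an unadjusted p under 0.05 the count was also 0 of 9, where 8.56% of tested genes passed. DESeq2 called 0 of 9 with 1.92% of its genes called, and limma-voom called 0 of 9 with 0.0204%. Of the 9 log2 differences, 6 were positive and 3 negative, with a median of 0.27 and a range of −0.24 to 0.49. Over all tested genes the median was 0.01 and 52.1% were positive.

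**Figure D2:**
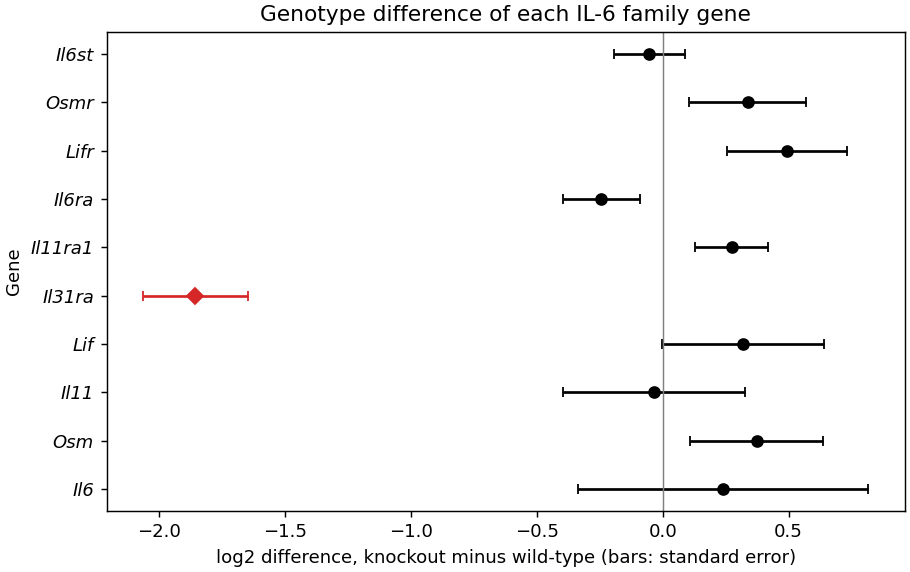
Fitted log2 difference of each gene, knockout minus wild-type, with its standard error (n = 3 libraries per genotype); the red diamond is Il31ra, which was chosen for its difference. Il31ra lies at −1.86 and the other 9 genes between −0.24 and 0.49.

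Il6st, which encodes the shared chain gp130, differed little between genotypes. Its level was 465.1, 451.2 and 465.8 CPM in wild-type replicates 1 to 3 and 407.6, 482.3 and 442.7 CPM in knockout replicates 1 to 3. The knockout libraries lay on both sides of the wild-type ones. The log2 difference was −0.05 (95% interval −0.38 to 0.28, edgeR adjusted p = 0.969).

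Osmr, the chain shared by the receptors for oncostatin M and IL-31, had 64.7, 58.3 and 82.9 CPM in wild-type replicates 1 to 3 and 62.0, 89.3 and 109.3 CPM in knockout replicates 1 to 3. The groups overlapped, with the 2 highest values in knockout. The log2 difference was 0.34 (95% interval −0.20 to 0.88, edgeR adjusted p = 0.787). Lifr, the chain that binds LIF, had 74.6, 101.6 and 110.3 CPM in wild-type and 100.1, 128.1 and 175.2 CPM in knockout replicates 1 to 3. Its groups overlapped too, and the log2 difference was 0.49 (95% interval −0.07 to 1.05, edgeR adjusted p = 0.647).

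Osmr and Lifr, the neighbours on chromosome 15, varied together over the libraries. Their log2 CPM had a Pearson r of 0.846 over 6 libraries and of 0.896 without knockout replicate 3 and wild-type replicate 1, the 2 libraries farthest from the median of Lifr. The 2 genes share library, depth and tissue makeup. For the neighbours Osm and Lif, r was −0.106 over the same libraries. Osmr and Lifr were both highest in knockout replicate 3, the library with the lowest summed smooth muscle markers (14970 CPM). Without that library the log2 difference was 0.14 for Osmr and 0.26 for Lifr. The part of tissue makeup was not tested.

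Il6ra, the ligand-binding chain for IL-6, came closest to Il31ra in separation downward but overlapped. It had 70.4, 70.1 and 64.1 CPM in wild-type replicates 1 to 3 and 47.3, 66.8 and 58.6 CPM in knockout replicates 1 to 3, so that knockout replicate 2 lay above the lowest wild-type library. The log2 difference was −0.24 (95% interval −0.60 to 0.11, edgeR adjusted p = 0.764). An annotated antisense gene, Gm42809, overlaps Il6ra, with counts of 0.173% of its own.

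Il11ra1, the ligand-binding chain for IL-11, had 52.6, 59.0 and 45.9 CPM in wild-type replicates 1 to 3 and 66.0, 68.5 and 56.2 CPM in knockout replicates 1 to 3. Only knockout replicate 3 lay within the wild-type span. The log2 difference was 0.27 (95% interval −0.06 to 0.61, edgeR adjusted p = 0.693). Its counts may be uncertain. Its span from start to end overlaps 6 annotated genes, 5 of which lie on the opposite strand. Their counts add up to 231% of those of Il11ra1. Whether their exons overlap those of Il11ra1 was not examined. Whether reads were counted by strand is not known from the sources used here. The near-identical gene Il11ra2 had 38 counts over all 6 libraries.

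Among the ligands, Osm was the only member besides Il31ra whose genotypes did not overlap. The gene, which encodes oncostatin M, had 0.514, 0.636 and 0.535 CPM in wild-type replicates 1 to 3 and 0.731, 0.793 and 0.658 CPM in knockout replicates 1 to 3. Every knockout library was above every wild-type library, as for 7.22% of all tested genes. The gap was within counting error, since the highest wild-type library had 33 counts (exact 95% interval 0.438 to 0.893 CPM) and the lowest knockout library 27 counts (0.434 to 0.958 CPM). These Poisson intervals cover counting error only. The log2 difference was 0.37 (95% interval −0.24 to 0.99, edgeR adjusted p = 0.792).

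Lif was high in a single knockout library. It had 4.76, 3.89 and 4.80 CPM in wild-type replicates 1 to 3 and 3.82, 4.45 and 8.54 CPM in knockout replicates 1 to 3. The log2 difference of 0.32 (95% interval −0.43 to 1.07, edgeR adjusted p = 0.889) became −0.12 without knockout replicate 3. Il11, a cytokine gene, had its lowest value in that library, the one with the lowest summed smooth muscle markers, whose part was not tested. It had 1.37, 1.31 and 1.04 CPM in wild-type and 1.21, 1.71 and 0.683 CPM in knockout replicates 1 to 3, with a log2 difference of −0.03 (95% interval −0.88 to 0.81, edgeR adjusted p = 0.993).

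Il6 was near the limit of detection, with 3 to 11 counts in wild-type libraries and 5 to 17 in knockout libraries (0.0535 to 0.236 and 0.122 to 0.264 CPM). Its log2 difference of 0.24 had a 95% interval of −1.11 to 1.59 (edgeR adjusted p = 0.966).

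None of the genes around Il31ra was called. Of 20 other genes tested within 1 Mb, 0 passed edgeR's threshold, against 0.0204% of all tested genes. At an unadjusted p under 0.05 the count was 1, against 8.56% of all tested genes. That 1 was Gzma, a granzyme gene of natural killer and T cells (log2 difference 1.53, edgeR adjusted p = 0.279), and it is also among the natural killer and T cell markers that separated the genotypes. Log2 differences were positive for 13 and negative for 7, from −0.44 to 1.53. Every knockout library was below every wild-type library for 2 of the 20 and above for 3, against 7.01% and 7.22% of all tested genes. Gzma was named after its value was seen.

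**Figure D3:**
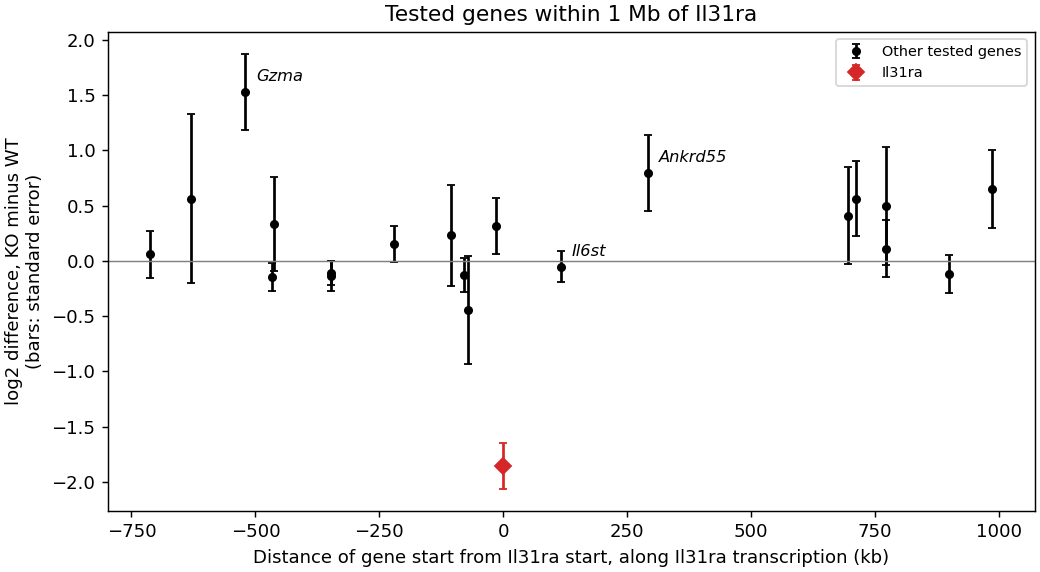
Fitted log2 difference (knockout minus wild-type, with standard error) of the 20 other tested genes within 1 Mb of Il31ra against the distance of their starts from the Il31ra start in kb; positive distances lie along the direction of Il31ra transcription. The red diamond is Il31ra at −1.86, and the other genes lie between −0.44 and 1.53.

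The genes whose log2 CPM followed that of Il31ra most closely over the 6 libraries were sought among 15053 tested genes with a mean of at least 1 CPM. They were Hdac8, a histone deacetylase gene (Pearson r 0.998), Lpar1, a lysophosphatidic acid receptor gene (0.994), Tcf23 itself (0.992), Vps35, a retromer subunit gene (0.988), and E030025P04Rik (0.986). Their likeness rests largely on the genotype difference for which Il31ra was chosen, so it is a description. Of the genes compared, 47 had an r of at least 0.95, and 1142 had every knockout library below every wild-type library.

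These 5 genes differed in the size of the genotype difference. Lpar1 had 452.5, 463.5 and 403.9 CPM in wild-type replicates 1 to 3 and 185.4, 195.0 and 232.1 CPM in knockout replicates 1 to 3, a log2 difference of −1.11. Hdac8 had a mean of 19.3 ± 0.669 CPM (SD, n = 3) in wild-type and 11.8 ± 0.605 CPM in knockout (log2 difference −0.71). E030025P04Rik had 3.00 ± 0.0416 and 1.04 ± 0.0935 CPM (log2 difference −1.53), and Vps35 had 170.1 ± 2.77 and 147.3 ± 3.61 CPM (log2 difference −0.21).

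Other ligands and receptors of the family were not called. Of 11 such genes 8 were tested, and Il31, Il11ra2 and Il27 had too few counts. With edgeR 0 of 8 passed, against 0.0204% of tested genes. DESeq2 and limma-voom called 0 of 8, against 1.92% and 0.0204% of the genes each gave an adjusted p. DESeq2 gave Ctf2 no adjusted p and so could not call it. Of the log2 differences 7 were positive and 1 negative (median 0.36). At an unadjusted p under 0.05 in edgeR, 1 was higher, against 5.27% of tested genes in that direction. The 1 was Il27ra, the receptor for IL-27, with 2.21, 2.76 and 2.09 CPM in wild-type replicates 1 to 3 and 3.62, 3.66 and 3.39 CPM in knockout replicates 1 to 3 (log2 difference 0.60 ± 0.21 SE, edgeR adjusted p = 0.467). Every knockout library was above every wild-type library for Il27ra, as for 7.22% of all tested genes. Cntfr, which encodes the receptor chain for ciliary neurotrophic factor, had a log2 difference of 0.82, with overlapping groups.

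None of the JAK, STAT and adaptor genes that carry the signal was called. All 17 transducer genes were tested, with a median log2 difference of 0.03. In edgeR, DESeq2 and limma-voom 0 passed, against 0.0204%, 1.92% and 0.0204% of the genes each gave an adjusted p. At an unadjusted p under 0.05 in edgeR the count was 0, against 8.56% of tested genes. Stat3, the main STAT factor of the family, had 263.4 ± 20.5 CPM (SD, n = 3) in wild-type and 246.6 ± 21.3 CPM in knockout, and the kinase gene Jak1 had 251.4 ± 25.7 and 229.2 ± 12.1 CPM; these 2 were added to the named genes for their role. The kinase gene Jak2 had 111.7, 114.8 and 126.7 CPM in wild-type and 131.3, 142.1 and 225.2 CPM in knockout replicates 1 to 3. Its groups did not overlap, and the log2 difference was 0.50 ± 0.22 SE (edgeR adjusted p = 0.596). The adaptor gene Shc1 and the factor gene Stat4 had log2 differences of −0.33 and −0.32. Groups overlapped for Stat4 but not for Shc1. Every knockout library was above every wild-type library for 2 of 17 transducer genes, against 7.22% of tested genes. For 1 of 17, Shc1, every knockout library was below, against 7.01%.

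None of the genes listed as feedback regulators was called either. The list held SOCS, PIAS and phosphatase genes that restrain signalling. It also held the protease genes Adam10 and Adam17, which are not of that kind. All 18 listed genes were tested. In edgeR, DESeq2 and limma-voom 0 passed, against 0.0204%, 1.92% and 0.0204% of the genes each gave an adjusted p. Of the log2 differences 9 were positive and 9 negative, with a median of 0.01. At an unadjusted p under 0.05, 2 were lower, against 3.29% of tested genes. The phosphatase gene Ptpn2, which acts on JAK and STAT proteins, had 31.5, 31.1 and 28.6 CPM in wild-type and 24.5, 23.6 and 22.3 CPM in knockout replicates 1 to 3 (log2 difference −0.37 ± 0.11 SE, edgeR adjusted p = 0.391). Socs2, a suppressor of cytokine signalling, had 183.7, 203.8 and 183.0 CPM and 167.1, 105.9 and 129.5 CPM (log2 difference −0.50 ± 0.19 SE, edgeR adjusted p = 0.509). Groups did not overlap for either, nor for Socs5 (log2 difference −0.37). These were 3 of 18 genes with every knockout library below every wild-type library, against 7.01% of tested genes, and 0 of 18 had every knockout library above. Socs3, the SOCS gene most closely tied to gp130 signalling, had 27.4 ± 2.40 CPM in wild-type and 29.1 ± 2.39 CPM in knockout.

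**Figure D4:**
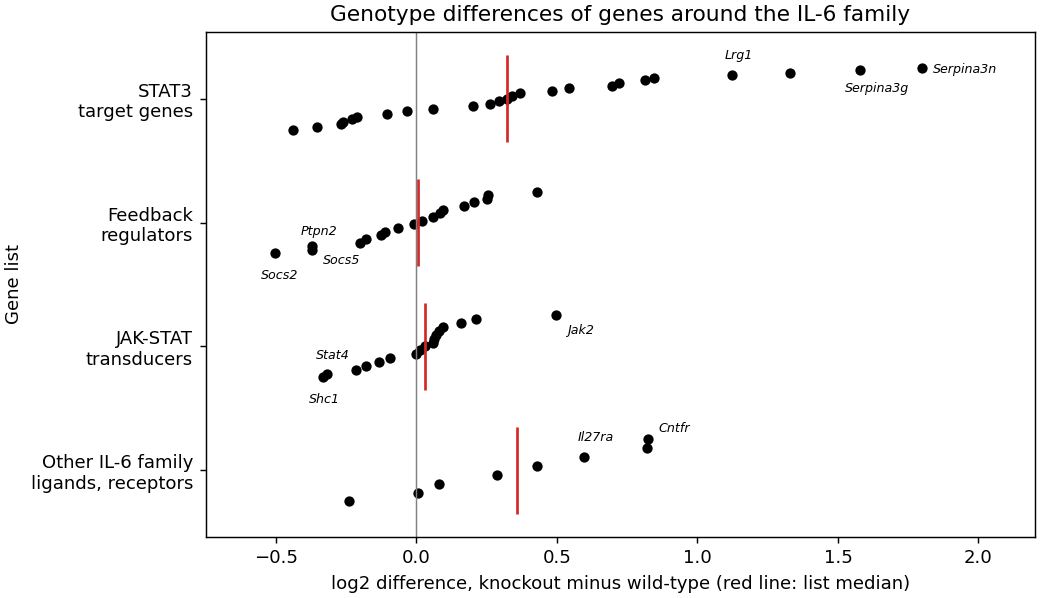
Fitted log2 differences, knockout minus wild-type, of the tested genes in each of 4 lists around the family; each point is a gene, red lines are list medians, and genes with the smallest p are named, 2 in the bottom row and 3 in the others. Medians are 0.36, 0.03, 0.01 and 0.32 from the bottom row to the top.

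Among genes known as STAT3 targets, more had positive than negative differences. All 25 were tested with edgeR, and 0 passed over all genes, against 0.0204% of tested genes. The log2 differences were positive for 17 and negative for 8, with a median of 0.32 against 0.01 over all tested genes. At an unadjusted p under 0.05, 5 were higher, against 5.27% of tested genes, and 1 was lower, against 3.29%. Every knockout library was above every wild-type library for 5 of 25 (20.0%, against 7.22% of tested genes) and below for 2 of 25, against 7.01%. The list was chosen with earlier results of these data known, so these counts are no independent support for a direction. DESeq2 called 3 higher, where it called 1.24% of its genes higher, and limma-voom called 0. Higher at an unadjusted p under 0.05 were Lrg1, Serpina3n, Serpina3g, Timp1 and Saa3, and lower was Pim1; Timp1, Saa3 and Pim1 were named after their values were seen.

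Lrg1, a secreted glycoprotein gene of the acute phase, had 39.5, 27.0 and 39.9 CPM in wild-type replicates 1 to 3 and 89.1, 64.8 and 77.7 CPM in knockout replicates 1 to 3. The groups did not overlap, and the log2 difference was 1.12 ± 0.20 SE (edgeR adjusted p = 0.186, DESeq2 adjusted p = 0.000413). With no filter on low counts edgeR gave Lrg1 an adjusted p of 0.032. Serpina3n, an acute-phase protease inhibitor gene, had 24.0, 31.1 and 19.54 CPM in wild-type and 46.6, 148.0 and 64.9 CPM in knockout replicates 1 to 3. Knockout replicate 2 was far above the rest, and the log2 difference of 1.80 ± 0.42 SE (edgeR adjusted p = 0.295, DESeq2 adjusted p = 0.00132) was 1.17 without it. Serpina3g, of the same gene family, had 0.54 ± 0.215 CPM (SD, n = 3) in wild-type and 1.60 ± 0.67 CPM in knockout (edgeR adjusted p = 0.341, DESeq2 adjusted p = 0.0325). Reads shared between the related Serpina3 genes could make their single values uncertain, which was not tested.

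**Figure D5:**
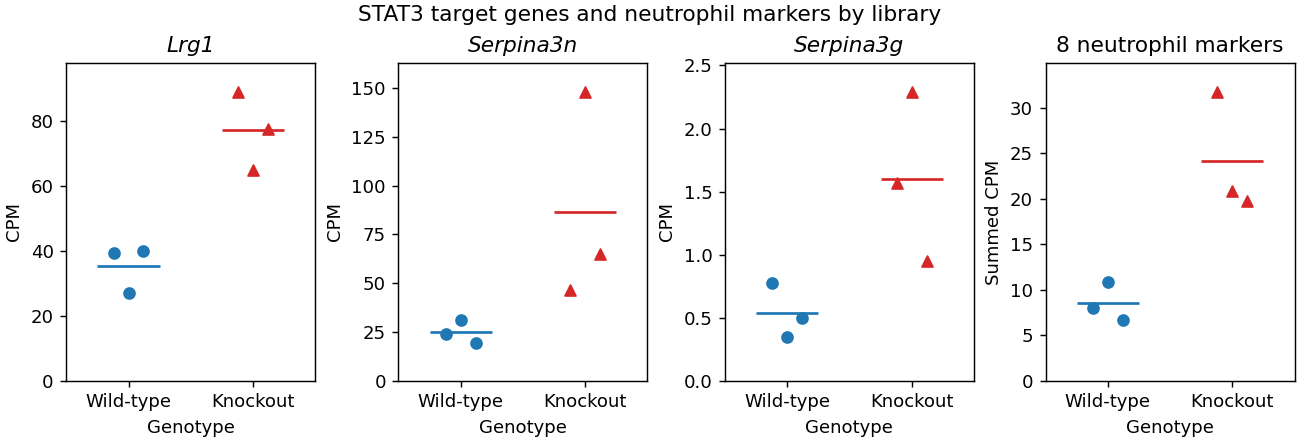
CPM of Lrg1, Serpina3n and Serpina3g and summed CPM of 8 neutrophil markers in each library (points) with group means (lines, n = 3 each), all axes from 0. In each panel the knockout libraries lie above the wild-type libraries, with 64.8 to 89.1 against 27.0 to 39.9 CPM for Lrg1 and 19.8 to 31.8 against 6.71 to 10.9 CPM for the markers.

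The neutrophil markers given above separated the genotypes in the same direction as these genes, as the plot of targets by library shows, and Lrg1 is also known from neutrophils. The summed natural killer and T cell markers did so as well. The part of white blood cells in the STAT3 target values was not tested.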

How the data were processed

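Poly(A)-selected, directional libraries were made from myometrium, per the labels' protocols. The authors deposited raw counts by Ensembl gene, 1 file a library, and a joint table of normalized values, each a signal equal to the count times 1 constant per library (largest relative deviation 9.9e-10). Build mm10 and the tools HISAT2 2.2.1, HTSeq 0.9.1, DESeq2 2.11.40.7 and FastQC 0.73 are listed, without roles, per the submitters' processing notes. The annotation release and whether counting used strand are not given in the sources. Symbols and positions come from the deposited table, with starts printed counting from 1. Exon lengths are merged exons of GENCODE M21, which held 54804 of 55055 identifiers.

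Deposited counts were fitted in R 4.3.3 with edgeR 4.0.16 (filterByExpr, TMM, quasi-likelihood test, genotype as the term, Benjamini-Hochberg over all genes tested). CPM are relative to TMM-scaled library sizes, and log2 CPM use a prior count of 2. Alternatives were DESeq2 1.42.0, limma-voom (limma 3.58.1), limma on the deposited normalized values as log2(value + 1), upper-quartile and RLE scaling, a filter of 1 CPM in 3 libraries, no filter, the replicate number as a block, an adjusted p under 0.10 and leaving out each library. The pipeline was tested on simulated data.

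Deviations from the group means correlated at 0.147, 0.196 and 0.217 for libraries with the same replicate number in their titles and at −0.223 to 0.0611 for others. Deviations cancel within each genotype, so with 3 libraries each some matching tends to come out positive. These values therefore cannot establish that the numbers pair the libraries. What, if anything, links libraries with the same number is not stated. All printed p-values, errors and intervals come from the fit without a block, and the blocked fit was an alternative.

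The members and the gene lists were chosen with earlier results of these data known. Named are the members, the 3 genes of each list with the smallest p, the 5 genes most like Il31ra in log2 CPM at a mean of at least 1 CPM, genes overlapping a member, and Tcf23. Not all selected genes are reported here.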

Additional observations from a re-analysis of the deposited data

How the results depend on the processing

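The log2 difference of Il31ra stayed between −1.88 and −1.82 under the scaling, filter and tool alternatives and the replicate block (−1.86), and between −1.99 and −1.73 with any 1 library left out. The count of called genes among the 9 other members, the other family genes, the transducers and the feedback regulators was 0 under every alternative run. Among STAT3 targets it was 1 with no filter and 3 with DESeq2, and 0 with any 1 library left out. Over all genes, 0 were higher and 4 lower in the edgeR fit. These counts were 4 and 8 with upper-quartile scaling, 47 and 34 with no filter, 247 and 135 with DESeq2, and 7 and 10 at an adjusted p under 0.10. In the fit blocked on replicate number, 2 were higher and 5 lower, and the counts for the members and the 4 lists stayed at 0. Leaving out 1 library gave 0 to 3 higher and 1 to 4 lower genes.

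Small differences changed sign. With 1 library left out, the log2 difference ran from −0.20 to 0.61 for Il6 (negative when wild-type replicate 3 or knockout replicate 1 was dropped) and from −0.111 to 0.012 for Il6st (positive when knockout replicate 1 was dropped). It ran from −0.12 to 0.54 for Lif (negative when knockout replicate 3 was dropped) and from −0.37 to 0.24 for Il11 (positive when either of wild-type replicates 1 and 2 or knockout replicate 3 was dropped). Il11 was 0.00 with upper-quartile scaling. The cause was not tested. Low counts limit the values of Il6 (55 counts in all libraries) and Osm (205).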
